A study of Mus musculus with 24 samples.

Results

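Relapsed LLC1 tumours were compared with parental LLC1 tumours over all measured genes. The comparison rests on 6 of the 24 libraries of the series, 3 labelled Relapsed LLC1 and 3 labelled Parental LLC1, taken by those labels and by no measured value. Of the 31618 genes in the LLC1 table, 10581 were high enough in at least 1 LLC1 group to be tested. LLC1 is the Lewis lung carcinoma line, a transplantable mouse lung cancer line. Cells were injected into mice, tumours were taken on day 15, and live cells without the leukocyte surface protein CD45 were sorted for sequencing of total RNA. The design text describes the relapsed tumours as relapsed after immune checkpoint blockade (ICB). The labels list no treatment for any of these tumours, and the agent used, the mouse strain and the number of lines or clones behind the relapsed tumours are not given in the sources used here. The 3 Chronic IFNG LLC1 libraries, from tumours exposed to low-level chronic interferon gamma (IFNG), are in the same table and give a further comparison for the relapsed tumours. The libraries are called biological replicates without a statement on separate mice, so p-values measure the spread between these samples, which may in part be technical.

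Expression is given as normalised read counts, calculated back from the deposited log2 values, for replicates 1, 2 and 3 in that order (n = 3 in each group). Values written as going from one set to another are parental and then relapsed libraries, and values written with "against" are relapsed and then parental libraries. Differences are on the deposited log2 scale, which compresses low counts, with the standard error (SE) of the fit. A gene was called higher or lower, and is written to have risen or fallen, where the limma adjusted p (Benjamini-Hochberg, over all 10581 genes) was below 0.05. In bulk samples fewer cells of a type and less RNA per cell cannot be told apart.

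Tumours that return after checkpoint blockade are studied for what lets them persist under T cell attack. Interferon gamma released by T cells binds its receptor on tumour cells, activates JAK kinases, and raises antigen presentation, chemokines and checkpoint ligands. Other pathways that shape a tumour under stress include p53, which arrests or kills damaged cells, and the hypoxia-inducible factors, which raise glucose uptake, glycolysis and vessel growth when oxygen is low. Changes in chromosome copy number move the expression of many neighbouring genes by small steps.

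The sorted cells carried markers of mesenchymal cells, and these markers do not tell cancer cells from host fibroblasts. Vimentin, the intermediate filament of mesenchymal cells, was at 74389, 79015 and 90193 in the parental and 58898, 64913 and 65268 in the relapsed libraries. The epithelial adhesion genes Cdh1 and Epcam were at 28.3 or below in all 6 libraries. The simple keratin gene Krt18 was present, at 2664, 3276 and 2996 in parental and 4093, 4286 and 4142 in relapsed libraries. Ptprc, which encodes CD45, was at 19.9, 50.5 and 10.9 in parental and 17.8, 67 and 48.7 in relapsed libraries. The estimated depth was 18.5 to 34.9 M fragments in parental and 20.5 to 24.2 M in relapsed libraries. Genes above the lowest deposited value numbered 25807 to 29069 in parental and 22104 to 22661 in relapsed libraries. Summed counts of 9 satellite-like predicted genes at the proximal end of chromosome 9 were 17482 to 62422 in parental and 453 to 849 in relapsed libraries, and those of 708 olfactory receptor genes 2940.3 to 4903 and 2359 to 2949. The part of this difference in low-level signal in the results was not tested.

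Relapsed tumours stood apart from parental tumours in a large share of their genes. Of the 10581 genes, 2742 (25.9%) were higher and 2067 (19.5%) lower, so 45.4% were called in all. With 44 of the higher and 106 of the lower genes differing by at least 1 log2 unit, most calls were of small size. Pairs of relapsed libraries differed by a mean absolute log2 value of 0.08 to 0.09 per gene, pairs of parental libraries by 0.10 to 0.11, and relapsed from parental libraries by 0.22 to 0.25. The first principal component, with 62.3% of the variance over the 9 LLC1 libraries, placed the 3 relapsed libraries at 22.1 to 24.4 and the other 6 between -17.1 and -6.90.

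Many of the small differences followed whole chromosomes. On chromosome 3, 365 of 526 kept genes (69.4%) were higher and 27 were lower, a median log2 difference of 0.29 and a ratio of counts plus 10 with a median of 1.34. The median was above 0 in all 16 windows of 10 Mb that held at least 5 kept genes. Relative to the parental mean, the chromosome 3 median was 0.29, 0.27 and 0.30 in the relapsed libraries and between -0.01 and 0.01 in the parental ones. Chromosome 18 went the other way, with 186 of 280 kept genes (66.4%) lower, 18 higher, a median of -0.26 and a median ratio of 0.77, and it was below 0 in all 9 windows. The deviations were -0.27, -0.25 and -0.25 in the relapsed libraries.

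Smaller shifts of the same kind were present on other chromosomes. Chromosomes 19, 10, 9 and 4 had 49%, 46.9%, 44.7% and 37.4% of genes higher, with medians of 0.16, 0.16, 0.14 and 0.12 (-0.021, -0.011 and -0.011 for chromosomes 10, 9 and 4 without a filter on low values), and chromosomes 11 and 7 had 39.3% and 32.2% lower, with medians of -0.12 and -0.09. All 13 windows of chromosome 11 and all 15 of chromosome 7 had medians below 0. Over all kept genes the median was 0.03. Set side by side with the chronic IFNG tumours, which share the parental controls, the medians against parental tumours were -0.01 for chromosome 3, -0.14 for chromosome 18 and -0.01 for chromosome 11 in those tumours. In the direct fit of relapsed against chronic IFNG tumours the medians were 0.29, -0.09 and -0.10. DNA copy number was not analysed here.

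**Figure D1:**
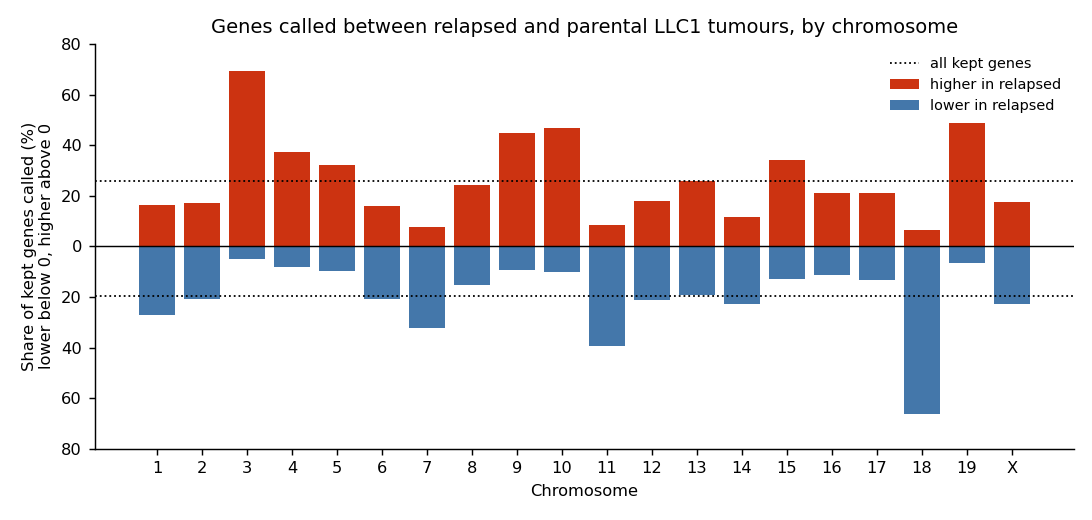
Share of kept genes called higher (above 0) or lower (below 0) in relapsed than in parental LLC1 tumours, by chromosome, in percent (3 libraries a group, limma adjusted p below 0.05); dotted lines give the shares over all kept genes. Chromosome 3 has 69.4% of its genes higher and chromosome 18 66.4% lower.

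A small number of genes were nearly lost from relapsed tumours, and many of them lay on chromosome 11. Named protein-coding genes that were called and had a relapsed mean of at most 0.1 of the parental mean numbered 42, of which 17 (40.5%) lay on chromosome 11, where 8.19% of kept genes lie. This class was set after the values were seen. With predicted and non-coding genes it held 59 of 10581 (0.558%), of which 17 lay on chromosome 11 and 10 each on chromosomes 1 and 9. Grb10, an adaptor that restrains insulin and IGF1 receptor signalling (chr11:11930508-12038683), was at 2141, 1936 and 2178 in parental and 45, 56 and 38.2 in relapsed libraries, 44.9-fold lower (log2 difference -2.70 ± 0.06 (SE), limma adjusted p = 1.39e-09). Efemp1, a fibulin of the elastic matrix (chr11:28853204-28926743), went from 1614, 1728 and 1779 to 11, 35.4 and 17.4. Myh10, the heavy chain of nonmuscle myosin IIB, went from 1717, 1850.1 and 1601 to 26.7, 54.1 and 24.6. In each of these 3 genes every relapsed library lay far below every parental and chronic IFNG library.

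Further chromosome 11 genes of the class span several functions. Ccl11, the eosinophil chemokine eotaxin, was at 1364, 2119.5 and 1153 in parental and 31.2, 42.5 and 52.1 in relapsed libraries. Ace, the angiotensin-converting enzyme, was 31.2-fold lower (35, 59.7 and 41.4 against 1232, 1544 and 1469). The scaffold gene Tanc2, the RNA-binding protein gene Igf2bp1, the O-glycosylation enzyme gene Galnt10 and the transmembrane collagen gene Col23a1 were 20.8-fold, 24.2-fold, 41.5-fold and 27.8-fold lower. Among transcription factors, Ebf1 fell 11.9-fold and Hoxb4 18.4-fold. The Wnt receptor Fzd2 fell 14.9-fold, and the other members on this chromosome were Mfap4, Abca5, Rnf130, Cnrip1 and Zfp354c. The members are spread along the chromosome, from Grb10 at its near end to Abca5 (chr11:110269369-110337716) at its far end.

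Genes on other chromosomes were nearly lost too. Agtr2, the type 2 angiotensin receptor on the X chromosome, was at 748, 1325 and 901 in parental and 2, 0.8 and 2 in relapsed libraries (log2 difference -2.36 ± 0.16 (SE), limma adjusted p = 1.79e-06). The imprinted zinc finger gene Peg3 went from 807, 1044 and 841 to 34.8, 47 and 36.6. The imprinted non-coding RNA H19 went from 2334, 2456 and 3589 to 51.6, 83.7 and 164. Inhbb, a subunit of activin B, was 23.7-fold lower, and the ERBB ligand gene Btc 14.4-fold lower. The UDP-glucuronosyltransferase genes Ugt1a6a, Ugt1a6b and Ugt1a7c also fell, but they share exons, and reads cannot be assigned to 1 of them with certainty. Xist, the RNA that silences an X chromosome in female cells, fell 13.8-fold, and was at 3351, 2939.7 and 2239 in parental, 175, 248 and 196 in relapsed and 146, 153 and 172 in chronic IFNG libraries. Relapsed and chronic IFNG tumours were not called different for Xist (log2 difference 0.15, limma adjusted p = 0.259). Xist was the only kept member of 6 sex-linked markers listed as a check on host cells. These summed to 98.2 to 144 CPM (normalised counts scaled to equal library sums) in parental and 8.47 to 11.4 in relapsed libraries. The part of host cells in the fall of Xist was not tested.

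At the other end, 26 named protein-coding genes were called and at least 5 times the parental mean, with none on chromosome 11. With other gene types the class held 30 of 10581 (0.284%), and it too was set after the values were seen. Ogn (osteoglycin, chr13:49608046-49624501), a small leucine-rich proteoglycan, rose from 71.8, 67.3 and 148 to 1466, 1564 and 1272, 15-fold (2.03 ± 0.10 (SE), limma adjusted p = 2.62e-07). Its neighbour Aspn (asporin), of the same family, rose from 457, 601 and 968 to 5105, 4425 and 3841, and the chronic IFNG libraries were also high at 4914, 3242 and 2217. Tubb3, a tubulin typical of neurons, rose 9.51-fold, from 124, 102 and 108 to 1156, 1041 and 973. The relapsed libraries of all 3 genes lay above every parental library.

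Several members of the raised class, chosen after their values were seen, are cell surface proteins. Efna1 on chromosome 3, a membrane-bound ligand of EPHA receptors, was at 160.2, 119 and 138 in parental and 1004, 862 and 1014 in relapsed libraries. The adhesion molecule gene L1cam rose 6.76-fold, from 104, 102 and 107 to 703, 629 and 779.6. Nt5e, which encodes CD73, the enzyme that makes extracellular adenosine from AMP, rose 5.95-fold, from 189.5, 196 and 133 to 975, 1015 and 1094. Ocln (occludin of tight junctions) rose 5.66-fold, Msln (mesothelin) 13-fold and Cd40 5.77-fold. The TNF receptor gene Tnfrsf1b went from 40.6, 20.5 and 22.6 to 222, 293 and 324. Rcan1, an inhibitor of the phosphatase calcineurin, rose 5.73-fold. The class also held Lyz2 and Hbb-bs, genes of myeloid and red blood cells that are described with the host markers. Angpt1, the ligand of the endothelial receptor TIE2, was at 21.6, 23.3 and 19.3 in parental, 375, 368 and 432 in relapsed and 562, 417 and 414 in chronic IFNG libraries. It was thus high in both derived groups.

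**Figure D2:**
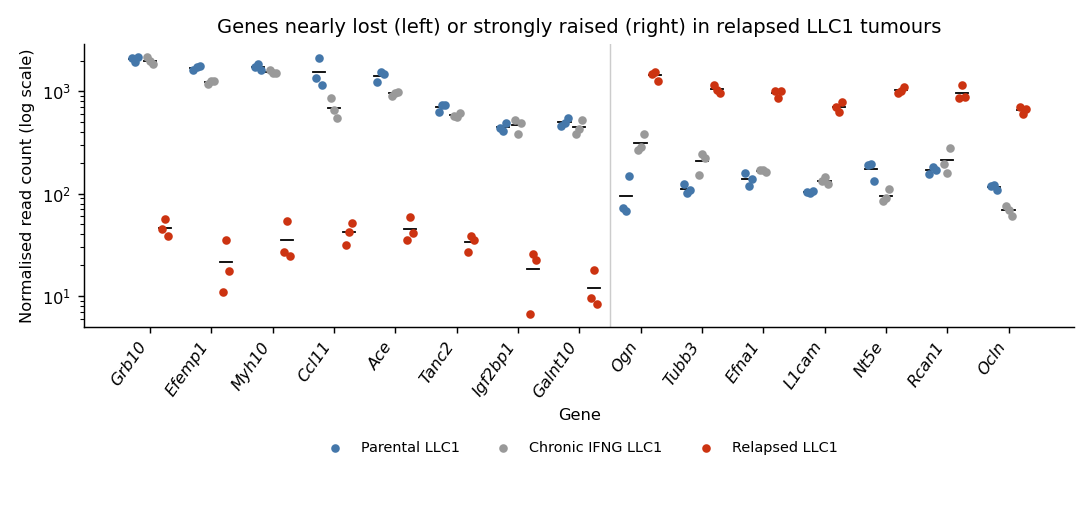
Normalised read counts on a log scale of 8 chromosome 11 genes nearly lost and 7 genes strongly raised in relapsed tumours; each point is 1 library, black bars are group means (n = 3). The relapsed points of the 8 genes on the left lie at 59.7 or below, and parental points at 405 or above.

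The calcium-binding protein gene S100a4 on chromosome 3, known from metastatic and mesenchymal cells, ranked next after Aspn and Ogn by log2 difference. It rose from 6674, 8561 and 7321 to 26522, 27844 and 27334, 3.62-fold (1.80 ± 0.09 (SE), limma adjusted p = 2.6e-07). Of 8 kept S100 family members 4 rose (S100a4, S100a6, S100a10 and S100a13) and S100a16 fell. All of these lie on chromosome 3, and S100a6 rose 1.32-fold, near the median ratio of that chromosome. On that chromosome 69.4% of kept genes rose and 5.13% fell, beside 25.9% and 19.5% over all kept genes. The histone genes Hist2h2aa1 and Hist2h2aa2, also on chromosome 3, rose 3.77-fold and 2.41-fold, but they are near-identical copies and their separate values are uncertain. Further large rises were in Ece1, the endothelin-converting enzyme (4.0-fold), in Igfbp6, which binds IGF2 (2.74-fold), and in the network collagen gene Col8a1 (2.77-fold).

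Genes that p53 activates were mostly lower in relapsed tumours. Of 43 kept p53 targets 26 fell and 4 rose (2 without relapsed replicate 2), with a median log2 difference of -0.21 against 0.03 for all kept genes, of which 19.5% fell and 25.9% rose. Trp53 itself, which encodes p53 and lies on chromosome 11, was 1.22-fold lower (1496, 1454 and 1547 against 1766, 1858 and 1846, limma adjusted p = 0.00689). Mdm4, an inhibitor of p53, fell 1.87-fold and the p53-binding DNA repair factor gene Trp53bp1 1.44-fold. The DNA damage kinase genes Atm and Chek1 rose 1.57-fold and 1.36-fold.

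Arrest and feedback genes were among the p53 targets that fell. Their counts stand beside 19.5% lower and 25.9% higher over all kept genes. Cdkn1a, which encodes the CDK inhibitor p21 (chr17:29090976-29100727), was at 2782, 2706 and 2196 in parental and 276, 354 and 368 in relapsed libraries, 7.71-fold lower (-2.00 ± 0.09 (SE), limma adjusted p = 1.27e-07). Of 9 kept arrest genes 7 fell, or 4 with relapsed replicate 1 or parental replicate 1 left out, and the stress sensor gene Sesn1 rose 2.01-fold. Among 6 kept genes that feed back on p53, 3 fell and none rose. Ccng1 (cyclin G1) on chromosome 11 went from 4928, 5191 and 4188 to 878, 1139 and 878. The ubiquitin ligase gene Mdm2 was 2.13-fold lower and Trp53inp1 3.79-fold lower. Mdm2 was at 4423, 4019 and 3407 in parental, 1798, 1854 and 1906 in relapsed and 3870.3, 4469 and 3973 in chronic IFNG libraries, and Ccng1 was at 4569, 4206 and 4631 in the last of these groups.

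Of 12 kept death genes among the p53 targets 5 fell, 6 were not called and 1 rose (none without relapsed replicate 1 or 2 or parental replicate 1 or 3), with the death receptor gene Eda2r 2.82-fold, the RNA-binding protein gene Zmat3 1.74-fold, the nuclease gene Aen 1.76-fold, the BH3-only gene Pmaip1 2.94-fold and the pore-forming Bax 1.35-fold lower. Of 16 kept repair, redox and metabolic targets 11 fell and 2 rose (1 without relapsed replicate 2 or 3 or parental replicate 2), but 7 fell with the replicate number as a block and 7 without relapsed replicate 1, relapsed replicate 2 or parental replicate 2. Psrc1, the gene of a spindle protein on chromosome 3, went from 622, 762 and 729 to 113, 154 and 92.7. Ak1 (adenylate kinase) was 2.41-fold lower, the AKT inhibitor gene Phlda3 2.09-fold and the thiamine transporter gene Slc19a2 1.80-fold. The ephrin receptor gene Epha2 rose 1.28-fold. Over all kept genes 19.5% fell and 25.9% rose.

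Cdkn1a is a classical p53 target, and the stretch upstream of it is shown because it had the largest fall among the targets. The upstream 250 bases of each RefSeq start site (GRCm38.p6) were searched for the p53 response element. The search took 2 consensus half-sites, with a variable spacer between them and no mismatch. Such a pair was present in 21 of 32851 promoter windows (0.0639%). Among the lowered targets, 22 had an entry and 1, Cdkn1a, held it, at 1 of its 2 listed start sites. The match begins 73 bases upstream, and capitals mark both half-sites and the spacer bases between them. A site with a letter off the consensus is not marked.
Cdkn1a (chr17:29090880-29090963, plus strand): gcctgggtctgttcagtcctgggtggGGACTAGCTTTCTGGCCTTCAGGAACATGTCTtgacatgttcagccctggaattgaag
Absence of these letters in this window says nothing of binding elsewhere.

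Most kept genes of the hypoxia response were lower in relapsed tumours. Of 48 kept glycolytic and other hypoxia genes 33 fell and 4 rose, beside 19.5% lower and 25.9% higher over all kept genes. The median log2 difference was -0.42 against 0.03 for all kept genes. Hif1a, the oxygen-regulated subunit of the hypoxia-inducible factor, was at 12178, 10380.3 and 7909 in parental and 5993, 6336 and 6605 in relapsed libraries (1.61-fold lower, limma adjusted p = 0.00144). Its partner gene Arnt, on chromosome 3, rose 1.33-fold. The oxygen sensor genes Egln1 and Egln3, which are also hypoxia targets, fell 1.5-fold and 1.42-fold. No parental library overlapped a relapsed one for Hif1a.

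The core hypoxia motif is shown for 6 lowered genes from different steps: glucose uptake (Slc2a1), glycolysis (Pgk1 and Ldha), lactate export (Slc16a3), mitophagy (Bnip3) and collagen hydroxylation (P4ha2). Capitals mark ACGTG or, for the other strand, CACGT in the 250 bases upstream of the RefSeq start (GRCm38.p6). Where the 2 readings overlap as CACGTG they also form an E-box.
Slc2a1 (chr4:119108683-119108739, plus strand): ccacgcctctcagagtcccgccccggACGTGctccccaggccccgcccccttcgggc
Pgk1 (chrX:106186924-106186980, plus strand): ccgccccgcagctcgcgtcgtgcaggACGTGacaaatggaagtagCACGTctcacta
Ldha (chr7:46845633-46845689, plus strand): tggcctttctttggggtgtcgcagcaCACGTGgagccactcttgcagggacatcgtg
Slc16a3 (chr11:120949014-120949066, plus strand): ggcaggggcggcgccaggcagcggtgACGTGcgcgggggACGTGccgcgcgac
Bnip3 (chr7:138909584-138909640, minus strand): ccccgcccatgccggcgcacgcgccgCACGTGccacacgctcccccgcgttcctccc
P4ha2 (chr11:54100820-54100876, plus strand): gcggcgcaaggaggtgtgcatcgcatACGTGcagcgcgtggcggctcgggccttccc
Of the 33 lowered genes, 27 had a RefSeq entry and 17 held the motif, as did 1 of 3 raised and 4 of 8 uncalled genes with an entry and 16.6% of all 32851 promoter windows. Genes with several listed starts were counted once if any start held it, so these shares are a description only.

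Of 4 kept genes of glucose uptake and lactate export 2 fell, and Slc2a3 (log2 difference 0.16 ± 0.07 (SE)) and Slc16a1 (0.11 ± 0.07 (SE)) were not called, although Slc2a3 was called higher without relapsed replicate 1 or with array weights and Slc16a1 after quantile normalisation. Slc2a1, the glucose transporter GLUT1, went from 17733, 14090.4 and 14268 to 5598, 6525 and 8286, 2.26-fold lower (-1.13 ± 0.14 (SE), limma adjusted p = 0.000127). The lactate exporter gene Slc16a3 fell 2.01-fold. Of 18 kept glycolytic enzymes and regulators 12 fell and 1, Hk1, rose (none without relapsed replicate 3 or parental replicate 3). The shares over all kept genes were 19.5% lower and 25.9% higher. Gapdh was 1.85-fold lower, Gpi1 1.82-fold, Aldoa 1.78-fold, Hk2 1.81-fold, Pgk1 1.57-fold and Ldha 1.40-fold. In the chronic IFNG tumours Gapdh, Slc16a3 and Hk2 were at 39099, 46456 and 46784, 309, 412 and 373 and 4841, 5989.8 and 5609. Directly compared, Slc16a3 was higher in relapsed than in chronic IFNG tumours (log2 difference 0.35, limma adjusted p = 0.0428) and Hk2 was not called (-0.07, limma adjusted p = 0.662).

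Of 26 kept hypoxia targets outside glycolysis 19 fell and 3 rose, beside 19.5% lower and 25.9% higher over all kept genes. Of 14 kept mitophagy, stress and chromatin genes 12 fell and none rose, among them Bnip3, which marks mitochondria for removal (1553, 2170.4 and 2418 against 5350.4, 4345 and 4330.4), the circadian repressor gene Bhlhe40 (2.05-fold) and the stress gene Ier3 (2.38-fold). Of the vessel genes, Vegfa went from 6067, 4952 and 4329 to 1825, 2054 and 2705 and the vasodilator peptide gene Adm fell 2.39-fold. In the endoplasmic reticulum, the oxidase gene Ero1l fell 2.88-fold and the collagen hydroxylase genes P4ha2 and Plod2 2.35-fold and 1.52-fold. The carbonic anhydrase genes Car9 and Car12, which act in pH control, rose instead. Car9 went from 95, 154 and 51.8 to 213, 328 and 388 (3.09-fold) and Car12 rose 2.23-fold, and the collagen crosslinking gene Loxl2 rose 1.61-fold.

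**Figure D3:**
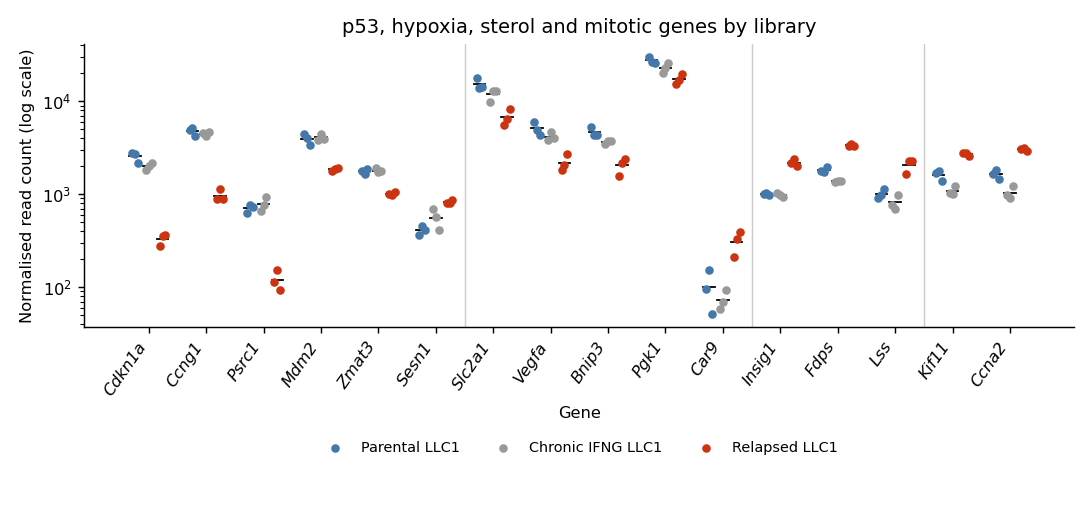
Normalised read counts on a log scale, 1 point per library and a black bar at each group mean (n = 3), for p53 targets, hypoxia genes, sterol genes and mitotic genes from left to right. Relapsed points lie below parental points for Cdkn1a, Ccng1, Psrc1, Mdm2, Zmat3, Slc2a1, Vegfa, Bnip3 and Pgk1 and above them for the others.

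Cytokine genes moved in both directions. Of 11 kept genes of the IL-1 and IL-6 families 6 fell and 4 rose, and of 7 other kept cytokines 2 fell, Csf1 rose (1.24-fold, or 2 rose without parental replicate 2) and 4 were not called, beside 19.5% lower and 25.9% higher over all kept genes. Il33, a nuclear alarmin cytokine released by damaged cells (chr19:29925114-29960718), went from 18096, 14946 and 11408 to 852, 938 and 1269, 14.5-fold lower (-3.35 ± 0.14 (SE), limma adjusted p = 1.27e-07). Its receptor gene Il1rl1 (ST2) fell 4.03-fold, from 17705, 14299 and 17378 to 3802, 3959 and 4505, and the coreceptor gene Il1rap 1.41-fold, whereas the IL-1 receptor gene Il1r1 rose 1.23-fold. Of 3 kept IL-6 family ligands, Lif fell 8.55-fold (127, 166 and 251 against 1996, 1689 and 965), Il11 fell 3.88-fold and Clcf1 rose 1.54-fold. The oncostatin M receptor gene Osmr fell 2.22-fold and the shared signalling chain gene Il6st rose 1.40-fold.

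Of 8 kept chemokines 6 fell and 1 rose, a rise that was not called with any library but parental replicate 3 left out. Besides Ccl11, the monocyte attractants Ccl2 and Ccl7 on chromosome 11 fell 2.53-fold and 2.88-fold, with Ccl2 at 14090.4, 11318 and 9921 in parental and 4015, 4592 and 5347 in relapsed libraries. The T cell attractant Cxcl10 fell 3.97-fold and the neutrophil attractant Cxcl5 3.15-fold. Of 7 kept prostaglandin genes 3 fell and 3 rose, beside 19.5% lower and 25.9% higher over all kept genes. Among genes of prostaglandin E2 synthesis, Pla2g4a (release of arachidonic acid) was 1.76-fold lower, Ptgs2 (COX-2) 4.16-fold and Ptges 1.97-fold, while Ptges3 rose 1.19-fold and Ptges2 was not called. Ptgs2 was at 20128, 13293 and 7770.1 in parental libraries, a wide spread, and 2647, 3284 and 3977 in relapsed ones. The constitutive enzyme gene Ptgs1 (COX-1) rose 1.29-fold.

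Most kept growth factor ligands fell. Of 12 kept ligands of receptor tyrosine kinases 11 fell and 1 rose, beside 19.5% lower and 25.9% higher over all kept genes. Their median log2 difference was -0.59. The falls included ligands of the EGF receptor family, namely amphiregulin (Areg, 245, 346 and 348 against 1651, 1195 and 882, 3.97-fold), Ereg (2.31-fold), Hbegf (2.27-fold) and Btc. The fibroblast growth factor gene Fgf7 and the MET ligand gene Hgf fell 2.19-fold and 2.10-fold. Of 13 kept receptors 6 rose and 3 fell (1 without relapsed replicate 2 or parental replicate 3). Met rose 1.34-fold, the collagen receptor gene Ddr2 1.43-fold and Fgfr1 1.31-fold. Among 17 kept feedback and output genes of ERK signalling 9 fell, including Dusp4 (1.77-fold) and Spry2 (1.60-fold), and 2 rose (1 without parental replicate 1), including the phosphatase gene Dusp1 (3.19-fold).

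Proximal chromosome 9 holds neighbouring gene families that moved in opposite directions. Of the 27 kept genes that start in its first 12 Mb, the 9 satellite-like predicted genes at the near end all fell, with wide spread in the parental libraries (Gm10718 at 19174, 5332 and 6654 in parental, 302, 300.3 and 136 in relapsed and 1062, 19305 and 13469.5 in chronic IFNG libraries). Such repeats can draw reads from many genomic copies. Next along the chromosome, the inflammatory caspase genes Casp1, Casp4 and Casp12 all rose. Casp1, which matures IL-1β and cuts gasdermin D, went from 192, 197 and 162 to 838, 670.0 and 697. Casp4 rose 5.03-fold and Casp12 4.46-fold (1.32 ± 0.05 (SE), limma adjusted p = 4.88e-08). Over the genome 6 of 8 kept caspases rose and none fell, beside 25.9% higher and 19.5% lower over all kept genes. The apoptotic initiator Casp9 was 1.47-fold higher. The rise of Casp6 lost its call without relapsed replicate 1, 2 or 3 or parental replicate 3 (limma adjusted p = 0.0554 to 0.152), and that of Casp8 with any library but parental replicate 3 left out (0.0701 to 0.114).

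The matrix metalloproteinase cluster a few megabases further on fell. Mmp12, the macrophage elastase (chr9:7344381-7369499), had the largest fall on the deposited log2 scale, which compresses low counts, among named protein-coding genes, from 21309.7, 16168 and 17238 to 568, 672 and 927, 25.2-fold (-3.99 ± 0.12 (SE), limma adjusted p = 8.71e-09). Mmp3 (stromelysin 1) fell 6.20-fold, from 54368, 43190.0 and 40692 to 6806, 6721 and 8754. Mmp13 and Mmp10 fell 3.51-fold and 3.28-fold. Beyond them, the apoptosis inhibitor gene Birc2 and Tmem123 rose 1.52-fold and 1.39-fold, while Yap1 (3131, 2743 and 3259 against 3126, 2961 and 2843) and Birc3 were not called. Outside the cluster Mmp9 and Mmp19 fell 3.64-fold and 2.39-fold and Mmp11 rose 1.78-fold. The urokinase gene Plau, its receptor gene Plaur and the inhibitor gene Timp1 fell 1.90-fold, 1.54-fold and 1.98-fold.

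**Figure D4:**
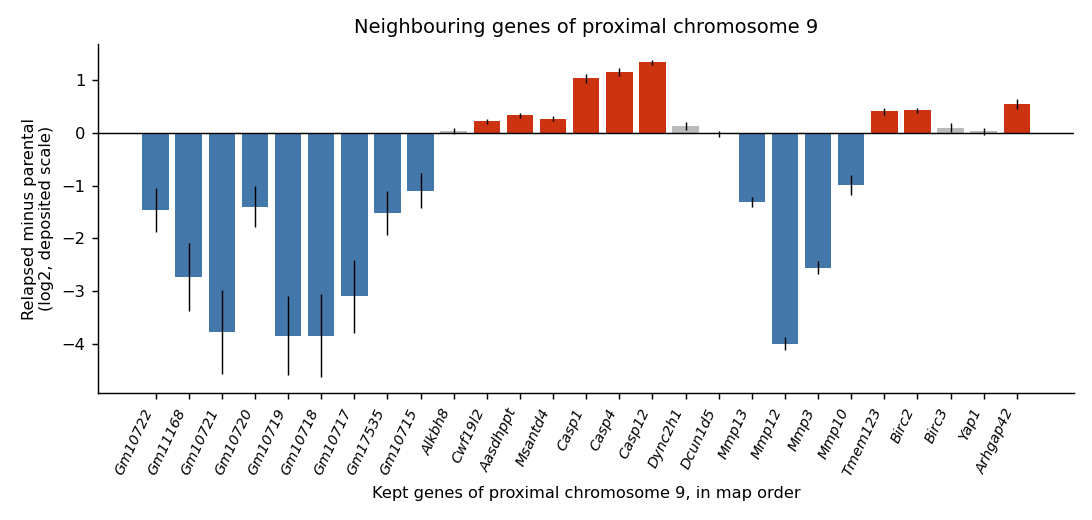
Log2 difference, relapsed minus parental, of the 27 kept genes in the first 12 Mb of chromosome 9 in map order; bars are fitted differences and lines their SE (3 libraries a group), red higher, blue lower, grey not called. Casp1, Casp4 and Casp12 are higher between 2 stretches of lower genes, the satellite-like genes and the Mmp genes.

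Matrix genes changed in both directions, with more falls than rises. Of 53 kept genes 24 fell and 12 rose, with a median of -0.26, beside 19.5% lower and 25.9% higher over all kept genes. Tnc (tenascin C), an adhesion-modulating matrix protein of remodelling tissue, went from 12996, 9526 and 14198 to 1458, 2072 and 1934, 6.72-fold lower (-2.45 ± 0.14 (SE), limma adjusted p = 8.7e-07). In the chronic IFNG tumours it stood at 32614, 29221 and 36380.0. The proteoglycan genes Bgn and Dcn fell 5.96-fold and 1.99-fold, while Aspn and Ogn of the same family rose. Of 11 kept fibrillar collagen and crosslinking genes 6 fell, with Col1a1 at 1621, 1799 and 2636 in parental and 1020.1, 976 and 1083 in relapsed libraries. The abundant Col3a1 (282618, 282209 and 252273 against 215668, 317087 and 272142) and Fn1 (111571, 98766 and 102553 against 87939, 101754 and 135183) were not called, and the laminin chain gene Lama5 rose 1.92-fold.

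Some matrix genes are also fibroblast markers, and a sort on CD45 does not remove host fibroblasts. Of 13 kept fibroblast markers 6 fell (Dcn, Lum, Postn, Fbln1, Col14a1 and Pi16) and Ly6c1 rose. The shares over all kept genes were 19.5% lower and 25.9% higher. With relapsed replicate 1, 2 or 3 or parental replicate 3 left out, 3 or 4 fibroblast markers fell. Their summed level, over 15 markers and mostly Col3a1, was 10869 to 15423 CPM (normalised counts scaled to equal library sums) in parental and 12245 to 13925 in relapsed libraries. Pdgfra, a defining marker, was at 4472, 5128 and 5622 and 5859, 5856 and 5852, and Clec3b at 12.5 or below in all 6. Of 9 pericyte and smooth muscle markers 2 were kept, and both, Acta2 and Pdgfrb, rose (3.87-fold and 1.79-fold). Endothelial markers summed to 69.1 to 79.0 CPM in parental and 52.3 to 57.4 in relapsed libraries, with 3 of 12 kept. The part of host cells in the matrix results was not tested.

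Blood and myeloid transcripts were present at low levels and differed between relapsed libraries. Hbb-bs, a haemoglobin gene, was at 7.2, 7.6 and 6 in parental and 37.1, 181 and 423 in relapsed libraries, and Lyz2, a macrophage and neutrophil gene, at 27.7, 46.6 and 40.1 and 152, 409.6 and 298. Of the 3 kept macrophage and monocyte markers Lyz2 and Cd14 rose, and Cd68 fell from 154, 125 and 173 to 64.2, 116 and 114 (limma adjusted p = 0.0431), a call lost without relapsed replicate 1, parental replicate 1 or parental replicate 3, after quantile normalisation and with a fit of only the 2 groups. The 11 macrophage and monocyte markers summed to 18.1 to 22.4 CPM in parental and 25.8 to 46.1 in relapsed libraries, and 7 neutrophil markers to 2.62 to 3.27 and 5.20 to 10.7. T and NK cell markers summed to 2.32 or less in all 6 libraries. None of the T and NK, B, neutrophil, skeletal muscle, keratinocyte or Schwann cell markers was kept.

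Adhesion receptors moved in both directions within families. Of 13 kept integrin genes 6 fell and 4 rose, beside 19.5% lower and 25.9% higher over all kept genes. Itga6, the laminin-binding α6 chain, went from 10832, 10456 and 9964 to 2119, 2716 and 3164 (3.91-fold), and the collagen-binding Itga2 fell 6.36-fold. Itgb3 and Itga5, which bind vitronectin and fibronectin, fell 2.70-fold and 1.75-fold. Itgb5 and the laminin-binding Itga7 rose 2.03-fold and 3.08-fold. Vcam1 on chromosome 3 and Cdh13 rose 2.10-fold and 3.22-fold. Among mesenchymal genes 6 of 11 fell and S100a4 rose. The repressor gene Zeb2 fell 1.62-fold. Vim fell 1.29-fold, but its difference was 0.02 (limma adjusted p = 0.922) after quantile normalisation.

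In the main fit most interferon genes were not called, beside 45.4% called and 19.5% lower over all kept genes. Irf1, a transcription factor that IFNG induces, went from 1900.1, 1998 and 1695 to 1385, 1418 and 1381 (1.34-fold lower, limma adjusted p = 0.0116), and Irf7 fell 2.44-fold. Of the receptor chains, Ifngr1 rose 1.20-fold and Ifngr2 fell 1.23-fold, and Jak1 rose 1.24-fold. Of 14 kept IFNG-inducible GTPases 4 fell and none rose. The number that fell was 2 without relapsed replicate 3, parental replicate 1 or parental replicate 3. It was 9 with only the 2 groups in the fit, and 8 with array weights or on the scale of log2 counts plus 10 or plus 1. Of 34 kept antiviral effectors 9 fell (Ifit3 3.91-fold, Zbp1 2.83-fold) and 4 rose (Ifit2 2.0-fold), and between 4 and 12 fell with single libraries left out, of which relapsed replicates 2 and 3 and parental replicates 1 and 3 moved the number most. Gbp, Irg and Ifit genes have near-identical copies, so reads may be split between them.

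The products of class I chain genes present peptides to CD8 T cells. These genes rose in 4 of 7 kept cases and fell in none, beside 25.9% higher and 19.5% lower over all kept genes. H2-K1 went from 1973, 2104 and 1979 to 4106, 4076 and 3171 (1.87-fold, log2 difference 0.76 ± 0.21 (SE), limma adjusted p = 0.0114). H2-D1 was 1.60-fold and H2-T23 1.5-fold higher, with the same caution on paralogs. H2-Q4 was 2.15-fold higher but lost its call with any library but relapsed replicate 3 left out (limma adjusted p = 0.0538 to 0.0913). Of 13 kept genes of peptide supply and loading, 3 fell and 2 rose, the latter 0 or 1 with any single library left out. The light chain gene B2m (13387, 12428 and 11743 against 11928, 10376 and 11831) and the transporter gene Tap1 were not called. Of 8 kept checkpoint ligands 4 fell and none rose, with Cd274, which encodes PD-L1, at 233, 183 and 238 in parental and 158, 133 and 116 in relapsed libraries, and the TIGIT ligand gene Pvr 1.78-fold lower. The call for Cd274 was lost without relapsed replicate 2 or 3 or parental replicate 1 or 3 (limma adjusted p = 0.0614 to 0.0829).

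Promoters of both directions held an interferon response motif (GAAA, any 2 bases, GAAA), searched on both strands in the same 250 bases and present in 2.98% of promoter windows. It was in 4 of the 6 lowered antiviral genes with an entry, in 5 of 15 uncalled ones and in none of 4 raised ones. In the class I pathway it was in H2-T23 among 6 raised genes and in 2 of 8 uncalled ones. Ifit1 and Isg15, which fell, and H2-T23, which rose, are shown to compare a gene of each direction, with capitals at the matches (GRCm38.p6, RefSeq). With any library but parental replicate 2 left out the falls of Ifit1 (limma adjusted p = 0.0609 to 0.168) and Isg15 (0.0725 to 0.137) were not called.
Ifit1 (chr19:34640759-34640820, plus strand): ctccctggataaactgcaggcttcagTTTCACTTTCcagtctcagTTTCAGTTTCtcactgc
Isg15 (chr4:156200861-156200922, minus strand): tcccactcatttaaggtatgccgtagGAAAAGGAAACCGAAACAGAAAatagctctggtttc
H2-T23 (chr17:36032790-36032851, minus strand): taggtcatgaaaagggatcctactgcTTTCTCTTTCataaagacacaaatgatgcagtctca

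Of 8 kept genes on the adenosine list 3 rose, 1 fell and 4 were not called, beside 25.9% higher and 19.5% lower over all kept genes. Entpd1 (CD39), which makes AMP from ATP, went from 56.3, 137 and 69.2 to 223, 250.5 and 335 (3.08-fold), and Nt5e acts on its product. Ada (adenosine deaminase), which removes adenosine, rose 2.42-fold, and Adk (adenosine kinase), which also removes it, was not called (limma adjusted p = 0.217). The listed gene that fell was Enpp2, whose product autotaxin makes lysophosphatidic acid and not adenosine. Enpp2 went from 4148, 6324 and 4329 to 779, 723 and 835 (6.33-fold lower).

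Most kept genes of sterol and fatty acid synthesis rose. Of 20 kept members 14 rose and none fell, beside 25.9% higher and 19.5% lower over all kept genes. The median log2 difference was 0.38. The SREBP regulator gene Insig1 went from 994, 1039 and 994 to 2143, 2406 and 2032 (2.17-fold, 0.86 ± 0.06 (SE), limma adjusted p = 2.08e-06). The pathway enzymes Lss, Fdps, Cyp51 and Idi1 rose 2.05-fold, 1.85-fold, 1.75-fold and 1.73-fold. The transcription factor gene Srebf2 rose 1.44-fold. The fatty acid synthase gene Fasn rose 1.20-fold. Insig1 lies on chromosome 5, Lss on 10 and Idi1 on 13, where 32.2%, 46.9% and 25.7% of kept genes were higher. The part of chromosome-wide shifts in the sterol result was not tested.

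Of 20 kept mitotic genes 12 rose, 8 were not called and none fell (median log2 difference 0.26), beside 25.9% higher over all kept genes, with 7 rising when relapsed replicate 2 was left out. Of 21 kept G1/S and replication genes 5 rose and 2 fell (median 0.06), and 2 or 3 rose and 0 or 1 fell with any library but parental replicate 1 left out. The spindle motor gene Kif11 went from 1686, 1767 and 1377 to 2768, 2793 and 2586 (1.69-fold). Kif11 lies on chromosome 19, where 49.0% of kept genes were higher and 6.54% lower. The part of chromosome-wide shifts in the mitotic result was not tested. Cyclin A2 (Ccna2) and the proliferation marker Mki67 rose 1.85-fold and 1.34-fold. The cyclin D1 gene Ccnd1 fell 1.57-fold, while the CDK4/6 inhibitor gene Cdkn2c rose 2.19-fold.

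**Figure D5:**
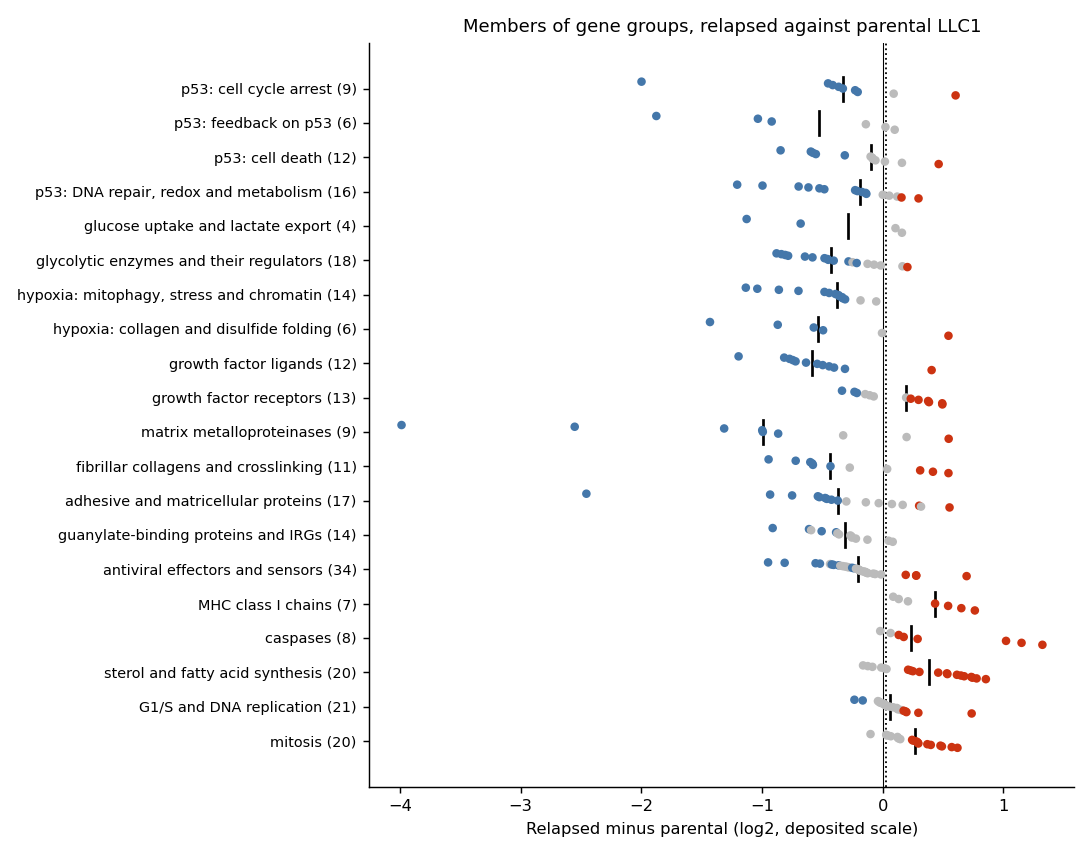
Log2 difference, relapsed minus parental, of every kept member of 20 gene groups; the number of kept members is in brackets, black ticks are group medians, the dotted line is the median of all kept genes (0.03), and red, blue and grey are higher, lower and not called. Glycolytic, hypoxia and growth factor ligand genes lie mostly below 0 and sterol, mitotic and class I chain genes mostly above.

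Stress and signalling lists are given beside the 25.9% higher and 19.5% lower over all kept genes. The metallothionein gene Mt2, whose product binds zinc and copper, fell 4.85-fold, and was at 7442, 5478 and 5103 in parental and 848, 1144 and 1722 in relapsed libraries. Of 17 kept NRF2 targets 6 fell and 3 rose. Heme oxygenase (Hmox1) fell 4.48-fold, from 4592, 2881 and 2199.7 to 517, 794 and 849, the cystine importer gene Slc7a11 fell 6.62-fold and Gsta4 rose 3.88-fold. YAP outputs and partners rose in 5 of 11 kept cases and fell in none, with Amotl2 2.63-fold higher. Of 13 kept AP-1 and immediate-early genes 7 rose, including Fos (1358, 2827 and 1824 against 624, 1021 and 558), and Atf3 fell 2.12-fold. The chronic IFNG libraries were also high for Fos (1877, 1756 and 1626). Heat shock chaperones fell in 4 of 9 kept cases (7 without parental replicate 3).

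Relapsed tumours were also compared directly with chronic IFNG tumours, which tests whether the differences of these groups from the shared parental tumours differ. Of 10581 genes 3337 (31.5%) were higher and 2166 (20.5%) lower in relapsed tumours, 52.0% in all. With each library centred on its median the split was 2701 and 2776. All 14 kept IFNG-inducible GTPases were lower in relapsed than in chronic IFNG tumours (median log2 difference -1.10), as were 28 of 34 antiviral genes and 38 of 53 matrix genes. Of 13 kept fibroblast markers 12 were lower and none higher. The 15 listed fibroblast markers summed to 20035 to 31501 CPM in chronic IFNG and 12245 to 13925 in relapsed libraries. The part of host cells in these falls was not tested. All 20 kept mitotic genes were higher (median log2 difference 0.73). Tnc had the largest fall on the log2 scale, 18-fold (log2 difference -3.85, limma adjusted p = 4.87e-08). Other large falls were in Mmp12 (-3.08), Enpp2 (-2.86), Bgn (-2.80), Grb10 (-2.65), Il33 (-2.51), Gvin1 (-2.49) and Myh10 (-2.45).

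Several genes with high values in relapsed tumours were higher than in chronic IFNG tumours as well. S100a4 was 3.73-fold higher (log2 difference 1.83, limma adjusted p = 1.61e-07), followed by Nt5e (1.67), the neuronal pentraxin gene Nptx1 (1.55), Lama5 (1.49), Ece1 (1.45), Brms1l (1.43) and 2 histone genes, Hist2h2aa2 (1.42) and Hist2h2bb (1.41). Brms1l was low in the chronic IFNG libraries (509, 295 and 593) and was at 1700.0, 1140.3 and 1136 in parental and 2244, 1589 and 1998 in relapsed libraries, which overlap. Of 43 kept p53 targets 22 were lower and 3 higher than in chronic IFNG tumours, with Cdkn1a 6.04-fold lower (limma adjusted p = 2.11e-07). Of 22 kept glycolytic genes 6 were lower and 5 higher (median 0.01), against 14 lower and 1 higher when compared with parental tumours. Sterol genes were higher in 16 of 20 cases. Of all kept genes 31.5% were higher and 20.5% lower than in chronic IFNG tumours. Against parental tumours these shares were 25.9% and 19.5%. Aspn (0.38, limma adjusted p = 0.189) and Angpt1 (-0.13, limma adjusted p = 0.145) were not called between the relapsed and chronic IFNG tumours.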

How the data were processed

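Total RNA from the sorted tumour cells was sequenced as 50 bp pairs, per the labels. The authors deposited 1 table of log2 values for the LLC1 samples, whose form is that of a variance-stabilising transformation. For the authors' own steps, the tools in the submitters' processing notes are DESeq2 1.34.0, Salmon 1.8.0 and cutadapt 2.9, and the builds GRCm38 and mm10, with no role stated. Normalised counts and depth were calculated back from the spacing of the log2 values. Genes whose mean in at least 1 LLC1 group lay 1 log2 unit above the lowest value were tested (10581 of 31618) with limma 3.58.1 (R 4.3.3), with an intensity trend and all 3 LLC1 groups in the fit, and p-values were adjusted by Benjamini-Hochberg. An exact test of 3 against 3 cannot go below p = 0.1. The scripts were tested on simulated data. Symbols came from the reference annotation, and promoter sequences from RefSeq.

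The comparison and the 57 gene lists were chosen with earlier results of these data known. Genes were named by rule: the 15 largest changes each way, the 8 largest each way against chronic IFNG tumours, up to 5 members of each role, and the kept genes of proximal chromosome 9. Other names were chosen after their values were seen, and some genes that the rule names are not reported here. Other filters, scalings, models and left-out libraries were tried. Equal replicate numbers did not mark paired samples: their deviations correlated at -0.18 to -0.02 between parental and relapsed libraries.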

Additional observations from a re-analysis of the deposited data

How the results depend on the processing

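Calls were made on 3 libraries a group, so small differences depend on single libraries. With 1 library left out, 2233 to 2433 genes were higher and 1605 to 1835 lower than in parental tumours. Against chronic IFNG tumours the ranges were 2853 to 3296 and 1791 to 2126. With a stricter filter (3 log2 units above the lowest value) 951 were higher and 825 lower against parental tumours, and 1175 and 732 against chronic IFNG tumours, since fewer genes are tested. Without a filter the numbers were 2748 and 3026, and 3500.0 and 3998, because genes near the lowest value enter. The replicate number as a block gave 2653 and 1988 against parental tumours and reversed no named gene. Median centring gave 2362 and 2458. Without a filter the medians of chromosomes 4, 9 and 10 were -0.011, -0.011 and -0.021. Among uncalled genes the sign changed for Col3a1 (0.17 at most with 1 library left out, -0.033 with array weights, -0.11 without parental replicate 1), Fn1 (-0.17 at the lowest with 1 library left out, 0.13 after quantile normalisation, 0.14 without parental replicate 3 and 0.0055 without relapsed replicate 2), Myc (-0.10 at the lowest, 0.012 without parental replicate 1) and Yap1 (0.089 at most with 1 library left out, -0.0048 after median centring, -0.018 without relapsed replicate 3 and -0.0022 without parental replicate 3). Vim was at 0.018 after quantile normalisation. The cause of these changes was not tested. The settings for chromosome medians, for lost and raised genes and for list counts were added after the data were seen. With single libraries left out, 38 to 42 protein-coding genes met the limit for near loss and 25 to 27 that for strong rises. Without a filter these were 484 and 86, and with the stricter filter 5 and 1. Low counts limit which small differences could be detected.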

Other observations

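Developmental signalling genes moved in both directions, beside 25.9% higher and 19.5% lower over all kept genes. Of 19 kept TGF-beta and BMP genes 6 fell and 4 rose. Inhba, the activin A subunit, went from 469, 449 and 360.4 to 166, 146 and 123, and the inhibitory SMAD gene Smad7 on chromosome 18 fell 1.63-fold (limma adjusted p = 0.000737). The ligand gene Tgfb3 and the receptor gene Tgfbr2 rose 1.87-fold and 1.58-fold. Of 12 kept Wnt genes 5 fell, with the ligand gene Wnt7b 1.57-fold lower, and 4 rose, led by the receptor gene Fzd6, which went from 316, 354 and 323 to 820.0, 878 and 844. The number of Wnt genes that rose was 2 without relapsed replicate 1, relapsed replicate 3 or parental replicate 1. Notch2 on chromosome 3 rose 1.83-fold, from 8573, 9220.4 and 9060.5 to 17028, 16067 and 15956, and the Notch ligand gene Dll1 fell 3.0-fold. Meis1, a homeobox partner of HOX proteins on chromosome 11, fell 4.02-fold, from 1221, 1299 and 1193 to 341, 289.7 and 293, without overlap between the groups. Annexin A6 (Anxa6), also on chromosome 11, fell 6.03-fold, while Anxa3 rose 2.40-fold.

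Iron, growth and respiratory genes completed the lists, and their counts stand beside 25.9% higher and 19.5% lower over all kept genes. The ferritin light chain gene Ftl1, which stores iron, fell 1.73-fold, from 24032, 21776 and 23233 to 11990.5, 13835 and 14068, and the transferrin receptor gene Tfrc rose 1.43-fold. Gpx4, which protects membrane lipids from peroxidation, rose 1.47-fold. Of 15 kept MYC genes and targets 8 fell and 2 rose (1 without relapsed replicate 2 or parental replicate 1), although Myc itself was not called, and 5 fell without relapsed replicate 1 or parental replicate 3. The polyamine synthesis gene Odc1 was lower in both derived groups, at 16901, 13908 and 10340.0 in parental, 6579.7, 7076 and 7530.0 in relapsed and 6087, 6302 and 7341 in chronic IFNG libraries. Of 23 kept nuclear genes of the respiratory chain 9 rose and 2 fell, with Sdhb 1.59-fold higher, and of 12 kept mitochondrially encoded genes 4 fell and none rose (2 fell without relapsed replicate 2). Crabp1, a retinoic acid binding protein gene, stood at 1519, 1842 and 1524 in parental, 317, 441 and 517 in relapsed and 94.7, 154 and 221 in chronic IFNG libraries, so both derived groups lay below the parental libraries.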
